A study of Saccharomyces cerevisiae with 95 samples.

Results

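TFIIA is a general transcription factor that binds TBP, the TATA-binding protein, at promoters. This section describes how the ChIP-seq signal of Myc-tagged TFIIA differed between late times after galactose addition (60, 90 and 120 min) and early times (10, 20 and 25 min) in budding yeast. The 6 libraries were 6 of the 95 samples of the series and were chosen by tag, factor and time alone. Of the 3685 intervals counted for TFIIA, 3647 were compared, since 21 lie on the mitochondrial chromosome and 17 lie in the ribosomal DNA block on chromosome XII. Values are counts per 1000000 (CPM) of the sum over those 3647 sites, so they are shares of the signal at these sites and not absolute occupancy. The libraries at 30 and 40 min are given for the course of each site and were not in the main test.

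All TFIIA libraries came from a diploid W303 strain of Saccharomyces cerevisiae grown in raffinose and moved to 2% galactose. Aliquots of the culture were crosslinked in formaldehyde at each time. One TOA1 allele, for the large TFIIA subunit, carried 9 copies of Myc at its N-terminus under its own promoter. The other TOA1 allele carried 3 copies of HA under the GAL1 promoter, and 1 allele of TOA2, for the small subunit, was placed under the GAL1 promoter without a tag. Thus an HA-tagged competitor built up in the same cells while the Myc signal was followed, in the late and the early libraries alike, and galactose both started the competition and changed the carbon source. Each group holds 3 time points with 1 library each, so its spread covers time as well as library preparation. The p-values measure only the spread between these samples and not that between cultures. Per the authors' methods, the time points were portions of the same culture, with 1 ChIP-seq sample per time point. In such bulk samples, fewer cells with TFIIA at a promoter and less TFIIA per cell cannot be told apart. The TBP and TFIIB libraries compared further below came from other diploid strains derived from W303, each grown as its own culture. There TBP or TFIIB, and not TFIIA, carried the Myc tag and had the HA-tagged competitor under the GAL1 promoter.

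The 6 libraries held 6797075 to 9830853 counts over all intervals, of which 5410001 to 7502124 fell on the 3647 sites, with a median of 931 to 1311 counts per site. Ribosomal DNA took 14.4 to 15.4% of counts late and 10.8 to 18.6% early, and the mitochondrial chromosome 3.91 to 9.32% late and 3.45 to 6.80% early. The authors called the intervals on early Myc libraries, so a promoter occupied late alone may be absent from the table.

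TFIIA stabilises TBP on promoter DNA, and TFIIB then joins and helps to place RNA polymerase II. Gal4 is the yeast activator of the galactose genes: it binds a pair of CGG half-sites with a spacer, and in raffinose it is held inactive by Gal80. In galactose, Gal3 relieves that block, and the genes for galactose uptake (GAL2) and for its conversion to glucose-1-phosphate (GAL1, GAL7, GAL10) are transcribed. Genes for the use of lactate, ethanol and acetate are, in contrast, repressed when a preferred sugar is abundant.

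The 4 galactose promoters past the test and the 2 sites that fell and were assigned to a gene are shown first as sequence, from the RefSeq R64 assembly of the S288C reference (the build named sacCer3), read 5′ to 3′ on the strand of the named gene. Each stretch is the central 300 bases of the site, ended 75 bases before the annotated start where it would run past that point. Capitals mark the Gal4 motif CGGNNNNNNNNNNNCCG and the TATA motif, searched as TATA followed by A or T, A, A or T, and A or G, on both strands. The first 4 sites had more TFIIA-Myc late, and the last 2 had less. GAL1-GAL10 is chrII:278556-278855 (plus strand), GAL2 is chrXII:289744-290043 (plus), GAL7 is chrII:275602-275722 (minus), GAL80 is chrXIII:171217-171516 (plus), ALD4 is chrXV:1039658-1039765 (plus) and ADH2 is chrXIII:874412-874695 (minus).
GAL1-GAL10: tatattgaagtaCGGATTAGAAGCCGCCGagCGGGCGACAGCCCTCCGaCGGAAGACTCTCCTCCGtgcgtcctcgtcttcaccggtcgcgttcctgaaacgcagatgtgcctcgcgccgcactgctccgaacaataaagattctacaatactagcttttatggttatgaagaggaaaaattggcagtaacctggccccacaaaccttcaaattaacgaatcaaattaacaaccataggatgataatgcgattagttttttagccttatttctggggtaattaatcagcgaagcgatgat
GAL2: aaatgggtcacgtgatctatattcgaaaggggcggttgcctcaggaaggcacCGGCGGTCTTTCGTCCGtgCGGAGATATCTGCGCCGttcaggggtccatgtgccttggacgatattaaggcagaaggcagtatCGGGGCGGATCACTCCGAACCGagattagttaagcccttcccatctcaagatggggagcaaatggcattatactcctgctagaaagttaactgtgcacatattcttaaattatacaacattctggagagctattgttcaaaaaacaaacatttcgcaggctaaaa
GAL7: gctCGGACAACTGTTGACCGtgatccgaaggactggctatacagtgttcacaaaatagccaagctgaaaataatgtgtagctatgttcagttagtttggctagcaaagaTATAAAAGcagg
GAL80: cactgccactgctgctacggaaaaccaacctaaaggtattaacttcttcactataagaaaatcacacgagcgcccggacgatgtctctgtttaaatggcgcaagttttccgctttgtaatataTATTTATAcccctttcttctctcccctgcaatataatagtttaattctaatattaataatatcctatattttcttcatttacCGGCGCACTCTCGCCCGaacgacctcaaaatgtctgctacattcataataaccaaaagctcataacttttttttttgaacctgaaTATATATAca
ALD4: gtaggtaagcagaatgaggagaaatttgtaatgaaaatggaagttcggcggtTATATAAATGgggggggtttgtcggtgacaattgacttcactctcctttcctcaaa
ADH2: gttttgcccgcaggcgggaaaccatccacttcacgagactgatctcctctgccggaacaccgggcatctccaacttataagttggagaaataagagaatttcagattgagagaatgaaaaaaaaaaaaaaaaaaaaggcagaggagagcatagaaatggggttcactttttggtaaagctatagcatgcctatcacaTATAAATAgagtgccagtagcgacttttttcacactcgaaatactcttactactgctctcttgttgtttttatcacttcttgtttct

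The printed GAL1-GAL10 stretch held 3 Gal4 motifs and GAL2 held 4, of which 2 overlap each other. GAL7 and GAL80 held 1 each, and ALD4 and ADH2 held none. In the central 300 bases of all 3647 sites, a Gal4 motif was present at 107 (2.93%), and GAL1-GAL10 and GAL2 were the 2 sites with more than 1. The 6 sites with the highest positive log2 changes among those 107 were GAL1-GAL10, GAL2, GAL7, GAL80, GAL3 and GCY1, of which the first 4 passed the test. At the other end, a site inside HXT7, a hexose transporter gene, had -0.61 and did not pass (adjusted p = 0.113). The median log2 change of the 107 sites was 0.05, against 0.01 for all sites. A TATA motif was present in these central bases at 1211 sites (33.2%), at 7 of the 10 sites that rose and at 2 of the 3 that fell. GAL1-GAL10 and GAL2 held none there. Their searched bases end at chrII:278855 and chrXII:290043, short of the annotated starts of GAL1 (279021) and GAL2 (290212). The bases between were not searched, so a TATA motif closer to these starts would be missed.

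Most TFIIA-Myc sites differed little between late and early times. The log2 change (late over early) had a median of 0.01 and an SD of 0.12 over the 3647 sites, and 90% of sites, between the 5th and 95th percentiles, lay from -0.17 to 0.20. It was larger than 0.5 in size at 10 sites and larger than 1 at 3, all of them at galactose genes (plot of all sites). The edgeR quasi-likelihood test with Benjamini-Hochberg adjustment over all 3647 sites called 13 sites, 0.356% of those tested: 10 were higher late (0.274%) and 3 were lower (0.0823%). At an unadjusted p under 0.05 there were 322 sites, 177 higher and 145 lower. The 3 late libraries lay all above the 3 early ones at 241 sites (6.61%) and all below them at 279 (7.65%).

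**Figure D1:**
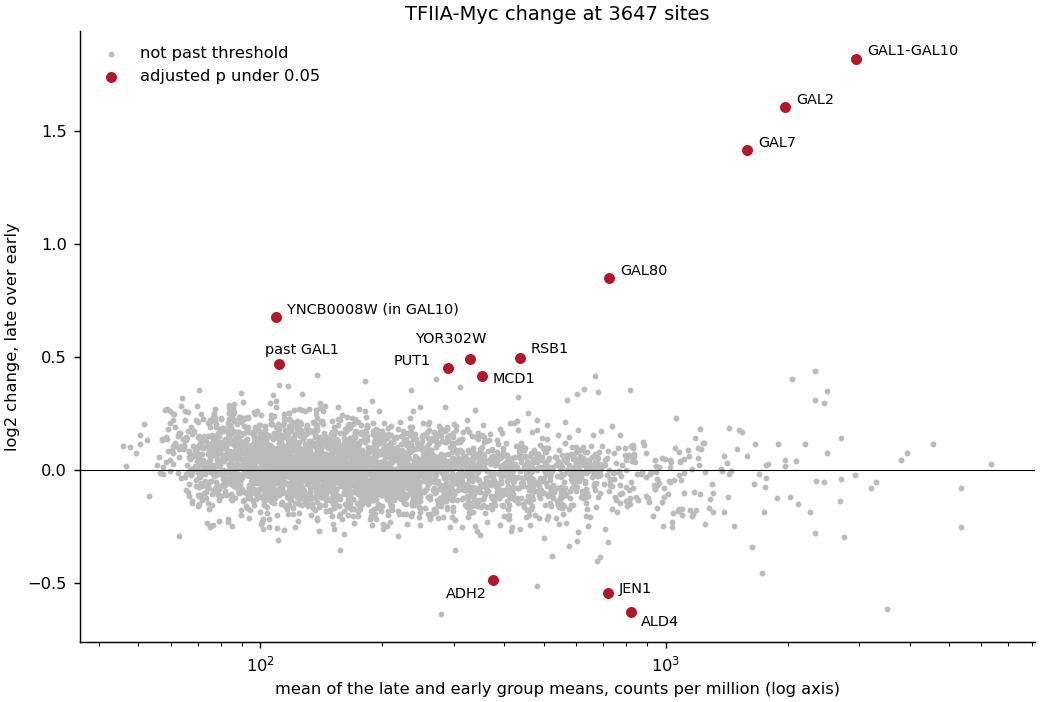
Log2 change of TFIIA-Myc (late over early, vertical axis) against the mean of the late and early group means in CPM (horizontal axis, log scale), 1 point per site for 3647 sites, with the 13 sites past an adjusted p of 0.05 in red. The galactose genes stand far above the cloud, and ALD4, JEN1 and ADH2 lie below it.

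The number of calls rested on single time points. Without the 10 min library there were 23 higher and 24 lower sites, without 25 min 19 and 9, and without 60 min 3 and 3. Without the 20, 90 or 120 min library the edgeR test called 0 sites, with 169, 166 and 181 sites at an unadjusted p under 0.05. The 13 sites named here kept their sign in all 6 of these fits and in every other setting tried. Their late and early values did not overlap, so leaving out a library could not reverse the sign. Assigned sites were also named only if they kept it, so the kept sign is no separate support.

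The largest rise was at the divergent GAL1-GAL10 promoter, which serves the genes for galactokinase and UDP-galactose epimerase (chrII:277973-279439, its midpoint 315 bp upstream of GAL1 and 354 bp upstream of GAL10). It had 4492, 4515 and 4801 CPM at 60, 90 and 120 min, against 601, 1473 and 1838 CPM at 10, 20 and 25 min, with 3175 and 3917 CPM at 30 and 40 min. Every library was higher than the one before it in time, and the late and early groups were far apart. The log2 change was 1.82 ± 0.28 (SE), a 3.53-fold ratio (adjusted p = 0.017, edgeR). Per kb of site, it ranked 3rd of 3647 at 120 min (3272 CPM per kb) and 2157th at 10 min (409 CPM per kb), where the median site had 440.3 and 429 CPM per kb. The strain also carries GAL1 promoter copies at TOA1 and TOA2, and reads from them cannot be told apart from those of the native promoter.

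GAL2, the galactose permease gene, followed the same course at a site whose midpoint is 318 bp upstream of its start (chrXII:289160-290629). Its late libraries had 2921, 2967 and 3007 CPM, and its early ones 520.5, 1076 and 1327 CPM. The late values lay close together (SD 43.5 CPM), whereas the early ones were still climbing (SD 413 CPM), and the middle libraries had 2162 and 2557 CPM. The log2 change was 1.61 ± 0.24 (3.04-fold, adjusted p = 0.017), and its rank per kb was 7th at 120 min and 3064th at 10 min. GAL1-GAL10 and GAL2 were 2 of the 4 sites at which every library of the 8 was higher than the one before.

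GAL7, for the uridylyltransferase of the pathway, had 2286, 2196 and 2454 CPM late and 438, 974 and 1188 CPM early (chrII:275116-276030). The groups did not overlap, and most of the change came before 40 min (2024 CPM). Its log2 change was 1.42 ± 0.25 (adjusted p = 0.0254), and its rank per kb was 4th at 120 min and 1083rd at 10 min.

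GAL80, whose product represses Gal4, rose less: 940.0 CPM at 60 min, 898 at 90 min and 959 at 120 min, against 367, 553 and 633 CPM at 10, 20 and 25 min (chrXIII:170925-171809). The log2 change was 0.85 ± 0.15 (1.8-fold, adjusted p = 0.0225). GAL3, for the galactose sensor, averaged 351 ± 7.97 CPM late and 272 ± 43.7 CPM early (SD, n = 3 each), with no overlap, but its log2 change of 0.37 did not pass the test (adjusted p = 0.267).

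The other Gal4-regulated genes with a site gave no call. MTH1, a regulator of hexose transporter genes, had a log2 change of 0.01, PCL10, a cyclin of the Pho85 kinase, 0.08, and PGM2, the main phosphoglucomutase, -0.10, each with overlapping groups. Of the 11 genes of that list, 6 had an assigned site, with a median log2 change of 0.22, against 0.01 for all sites. The assigned sites past the test were GAL7 and GAL80, 2 of 6, against 0.274% of all sites. The GAL1-GAL10 and GAL2 sites are not among these 6, because their midpoints lie further upstream than the 250 bp used to assign a site to a gene. They are named here after their values were seen, as are the sites near JEN1, MCD1, RSB1 and FUR4 below.

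**Figure D2:**
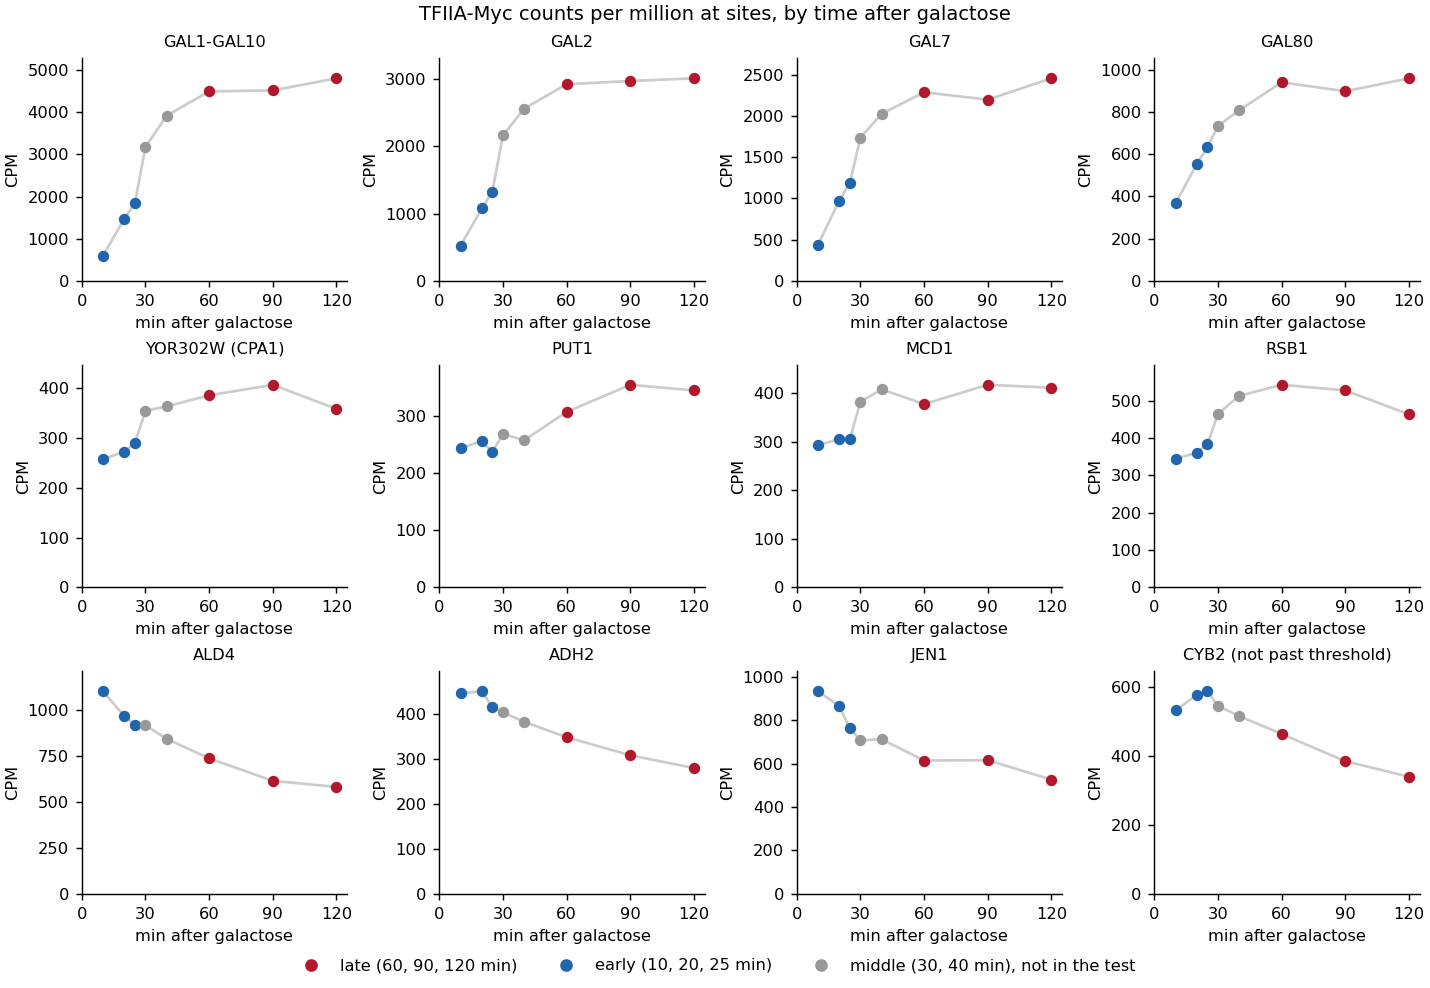
TFIIA-Myc in CPM (vertical axes from 0) against minutes after galactose (horizontal axes) at 12 named sites, 1 point per library, with late libraries in red, early ones in blue and middle ones in grey. The galactose promoters climb steeply until about 40 to 60 min, the YOR302W, MCD1 and RSB1 sites step up by 30 min, and ALD4, ADH2 and JEN1 decline through the course.

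A pair of weaker sites next to the galactose promoters also rose. One lies within the GAL10 coding region, 87 bp upstream of YNCB0008W, an annotated noncoding RNA that runs antisense to GAL10 (chrII:276606-276830). It had 123, 139.7 and 141 CPM late and 74.3, 89.6 and 88.7 CPM early (log2 change 0.68 ± 0.10, adjusted p = 0.017). The other lies past the end of GAL1, 604 bp upstream of FUR4, the uracil permease gene (chrII:280737-280942), with 124, 133 and 130.3 CPM late and 92.2, 88.9 and 99.3 CPM early (log2 change 0.47 ± 0.09, adjusted p = 0.035). At both sites the late and early values did not overlap. Whether they hold separate binding or signal from the neighbouring GAL promoters was not tested.

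The remaining 4 sites that rose do not belong to the galactose pathway. The site upstream of YOR302W (chrXV:882264-882799), the arginine attenuator peptide of the CPA1 leader, lies 368 bp upstream of CPA1, for a carbamoyl phosphate synthetase subunit of arginine synthesis. It had 386, 407 and 359 CPM late and 258, 273 and 289.5 CPM early (log2 change 0.49 ± 0.07, adjusted p = 0.017). Its 30 and 40 min libraries, with 355 and 364 CPM, were already above all the early ones.

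PUT1, for proline oxidase, had 306, 354 and 344 CPM late and 243, 255 and 236 CPM early (chrXII:424630-425266, log2 change 0.45 ± 0.07, adjusted p = 0.017). Its middle libraries, with 268 and 257 CPM, were close to the early ones, so the difference came after 40 min.

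The site 305 bp upstream of MCD1, which encodes the kleisin subunit of cohesin (chrIV:444029-444727), had 377, 417 and 411 CPM late and 293, 306 and 305 CPM early. The log2 change was 0.42 ± 0.07 (adjusted p = 0.017). The site 630 bp upstream of RSB1, a sphingoid base transport gene (chrXV:423852-424873), had 543, 528 and 464 CPM late and 344, 361 and 383 CPM early (log2 change 0.50 ± 0.08, adjusted p = 0.017). At both sites the 30 min library was above every early one.

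Next in the order of the naming rule were 5 promoters that missed the threshold, with all late libraries above the early ones. RNR1, the large ribonucleotide reductase subunit, averaged 705 ± 31.7 CPM late and 549 ± 30.9 CPM early (SD, n = 3 each; log2 change 0.36, adjusted p = 0.086). TOS6, for a cell wall protein, had a log2 change of 0.35 (adjusted p = 0.0956), RBH2 0.42 (0.106), YGR035W-A 0.34 (0.113) and PDS5, for a cohesin maintenance factor, 0.38 (0.171).

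The 3 sites that fell are at genes for the use of nonfermentable carbon. ALD4, for the mitochondrial aldehyde dehydrogenase, had 736, 614 and 581 CPM late and 1100.0, 965 and 918 CPM early (chrXV:1039293-1040324). It was the 1 site at which every library was lower than the one before, through 915 and 841 CPM at 30 and 40 min. The log2 change was -0.63 ± 0.10 (0.647-fold, adjusted p = 0.017). Per kb it ranked 574th at 120 min and 56th at 10 min.

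JEN1, the lactate and pyruvate permease, has its site 515 bp upstream of the start (chrXI:20939-22500), with 614, 616 and 526 CPM late and 934, 865 and 762 CPM early. The log2 change was -0.54 ± 0.09 (adjusted p = 0.0225). ADH2, the alcohol dehydrogenase that oxidises ethanol, had 348, 307 and 279 CPM late and 445, 449.5 and 415 CPM early (chrXIII:874207-874885, log2 change -0.49 ± 0.08, adjusted p = 0.0225). At both the groups did not overlap, and the 120 min library was the lowest of the 8.

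A set of promoters that missed the threshold followed, with all late libraries below the early ones. CYB2, the lactate dehydrogenase known as cytochrome b2, came closest, with 464, 385 and 339.7 CPM late and 532, 577 and 588 CPM early (log2 change -0.51 ± 0.10, adjusted p = 0.0506). DLD1, the D-lactate dehydrogenase, averaged 455 ± 48.8 CPM late and 592 ± 30.3 CPM early (SD, n = 3 each; log2 change -0.38, adjusted p = 0.113). GUT2, the mitochondrial glycerol-3-phosphate dehydrogenase, had a log2 change of -0.38 (adjusted p = 0.267). HXK1, a hexokinase repressed by glucose, had -0.46 (0.103), ATH1, acid trehalase, -0.35 (0.111), HXT2, a high-affinity glucose transporter, -0.64 (0.171), ATO2, an ammonium transporter of the acetate permease family, -0.25 (0.223) and ERD2, the HDEL retrieval receptor, -0.25 (0.315). Of HXT2's early libraries, the one at 10 min (457 CPM) stood above the other two (292 and 268 CPM), and its late libraries had 208 to 231 CPM.

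Gene lists moved by less than single sites did, and most had no member past the test (plot of lists). They are described by their medians beside the 0.01 of all sites, and they were chosen with earlier results of these data known. In the list for gluconeogenesis and nonfermentable carbon, 9 of 26 genes had a site, with a median log2 change of -0.16. ALD4 and ADH2 fell, 2 of 9, against 0.0823% of all sites, while YAT1, a carnitine acetyltransferase, had 0.34 (adjusted p = 0.474). Over all 3647 sites, 1738 had log2 changes below 0 and 145 were lower at an unadjusted p under 0.05. All 8 sites of the tricarboxylic acid cycle had log2 changes below 0 (median -0.13), and so did all 8 of glycogen and trehalose metabolism (median -0.15) and 21 of 23 of the respiratory chain and ATP synthase (median -0.09). In these 3 lists the edgeR test called 0 sites, while 2, 2 and 1 of them were lower at an unadjusted p under 0.05. Heat shock and chaperone genes had a median of -0.13 over 17 sites, with 3 above 0, and oxidative stress genes -0.06 over 14. The edgeR test called 0 in either list, with 1 and 2 sites lower at an unadjusted p under 0.05.

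Ribosome biogenesis genes had log2 changes above 0 at 29 of 30 sites (median 0.12), against 1909 of all 3647, and 0 were called by the edgeR test. Of the 30, 7 were higher at an unadjusted p under 0.05, against 177 of 3647, and NSR1, for a nucleolar protein of pre-rRNA processing, was the highest (141 ± 9.57 CPM late and 112 ± 5.91 CPM early, SD, n = 3 each; log2 change 0.34, adjusted p = 0.206). Their late libraries were all above the early ones at 6 of 30, against 6.61% of all sites. The glycolysis list had a median of 0.10 over 8 sites, from -0.46 at HXK1 to 0.25 at TDH2, a glyceraldehyde-3-phosphate dehydrogenase gene. Ribosomal protein genes had a median of 0.03 over 88 sites, with a range of -0.11 to 0.12 and 0 sites at an unadjusted p under 0.05. Amino acid biosynthesis had 0.05 over 25, mating genes 0.06 over 4, ergosterol synthesis -0.03 over 11 and snRNA and snoRNA genes -0.05 over 42, each with 0 calls by the edgeR test and 1, 1, 0 and 3 sites at an unadjusted p under 0.05.

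TFIIA also gave sites over tRNA genes, which RNA polymerase III transcribes with TBP as part of TFIIIB. The median log2 change of the 246 such sites was 0.09, and 212 were above 0. Late libraries were all above the early ones at 53 of them and all below at 5, against 6.61% and 7.65% of all sites. The edgeR test called 0, with 43 higher and 1 lower at an unadjusted p under 0.05, against 177 and 145 of all 3647. In summed CPM these sites had 78745 to 82177 late and 76713 to 78785 early, so the groups overlapped narrowly. Sites within 20 kb of a chromosome end had a median of 0.07 over 189. Promoters with a TATA motif in the 200 bp before the start had a median of -0.01 over 722 and 6 calls, 4 higher and 2 lower, and those without one also had -0.01 over 1603, with 1 call, higher. Of all sites, 0.274% were called higher and 0.0823% lower.

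The genes of the transcription machinery itself, including the one placed under GAL1 control, were also read, with no outcome set in advance. TOA2 had a site at its native start (chrXI:329944-330248) with 164 ± 15.6 CPM late and 163 ± 9.79 CPM early (SD, n = 3 each), a log2 change of 0.01 that changed sign with the scaling. SPT15, for TBP, had 0.05, SUA7, for TFIIB, -0.12, TFG1 and TFG2, for TFIIF, -0.03 and -0.02, TFA1, for TFIIE, 0.06 and TAF14 0.12, all with overlapping groups. TRP1, a marker used to build the strain, had -0.05. URA3, whose promoter the authors amplified to check the ChIP, had 0.10. TOA1 had no assigned site and was not analysed here.

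The HA-tagged competitor, read in the same culture over the same sites, gave a background for these courses, shown side by side since its level rose by design. At GAL1-GAL10 the HA libraries had 5422, 7571 and 5232 CPM late and 1152, 1916 and 3622 CPM early. At ALD4 they had 394, 332 and 453 CPM late and 493, 469 and 432 CPM early, and at PUT1 228, 221 and 227 CPM late and 217, 233 and 232 CPM early. HA thus climbed at GAL1-GAL10 as Myc did, its late and early values overlapped at ALD4, and they also overlapped at PUT1. At RSB1 the HA values ran lower late (311, 277 and 329.5 CPM) than early (398, 369.6 and 388 CPM), while Myc ran higher.

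TBP, TFIIA and TFIIB meet on the same promoter, so the TFIIA-Myc change was set against the change of TBP-Myc and of TFIIB-Myc over the same times, at genes with a site for both factors. The comparison with TBP covered 1538 genes and that with TFIIB 1933, and the genes named as examples were chosen after their values were seen. Each factor was followed in its own strain and culture, with its own competitor. A difference between factors therefore cannot be told apart from a difference between strains, cultures or competitors. The spread of log2 change between genes was smaller for TFIIA (SD 0.11 in both sets) than for TBP (0.29) and TFIIB (0.40). The libraries also differed in contrast: the SD of log2 counts per bp over sites was 0.36 to 0.49 in the 8 TFIIA-Myc libraries, 0.74 to 0.90 in the TBP-Myc libraries and 0.91 to 1.15 in the TFIIB-Myc libraries. After subtraction of each library's 5th percentile of counts per bp, an alternative added for this comparison after the data had been seen, the SD of the changes was 0.71 for TFIIA and 0.99 for TBP, and 0.73 for TFIIA and 0.72 for TFIIB. Contrast thus differed between the factors along with the size of the changes, and the calls after subtraction are given beside each comparison below.

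Against TBP, the change of TFIIA-Myc was higher at 13 genes (0.845% of 1538) and lower at 4 (0.26%), by the interaction term of an edgeR fit over 12 libraries. At all 17 the TBP change was the larger in size, with a median size of 1.05 for TBP and 0.09 for TFIIA. The 17 were picked by their difference, and TFIIA changes spread less over the 1538 genes (SD 0.11 against 0.29). The larger TBP change is thus no separate result. MDH1, mitochondrial malate dehydrogenase, had 419.7, 419 and 473 CPM of TFIIA late and 458, 428 and 429 CPM early, while TBP had 181, 169 and 185 CPM late and 339, 334 and 319 CPM early. The log2 changes were -0.00 for TFIIA and -0.89 for TBP, a difference of 0.89 (adjusted p = 0.00574). The same direction held at CQD1 (difference 1.15), TIP1, a cell wall mannoprotein gene (1.40), PDH1, of propionate use (1.77), IDH2, an isocitrate dehydrogenase subunit (1.43), and ICL2, a 2-methylisocitrate lyase (1.52). ATP7 and ATP17, of the ATP synthase, had differences of 0.71 and 0.70. The 4 genes with a lower TFIIA change were SNR47 and SNR69, which make snoRNAs (-0.86 and -0.73), YKL068W-A (-0.86) and YJL047C-A (-0.70), all with a rise in TBP of 0.55 to 0.80.

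These calls moved with the libraries. With time point as a block, which pairs libraries of the 2 factors by minute and not by culture, there were 10 higher and 1 lower. Leaving out the TFIIA library at 10, 20, 25, 60, 90 or 120 min left 9, 7, 7, 5, 6 and 9 calls, and leaving out TBP at 10, 25 or 90 min left 81, 28 and 8. All 17 kept their sign in each of these fits, and 9 of the 17 stayed past the threshold after background subtraction. They were picked by their difference in these same libraries, so a kept sign is no separate support. With each library scaled to its total over all sites, 17 were higher and 1 lower.

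Against TFIIB, the change of TFIIA-Myc was higher at 114 genes (5.9% of 1933) and lower at 24 (1.24%). The TFIIB change was the larger in size at 137 of these 138, with a median of 0.85 for TFIIB and 0.07 for TFIIA. This too is no separate result, since the 138 were picked by their difference and TFIIA changes spread less (SD 0.11 against 0.40). SDH4, a succinate dehydrogenase subunit, had 397, 349 and 377 CPM of TFIIA late and 421, 399 and 434 CPM early, while TFIIB had 332, 305 and 256 CPM late and 758, 803 and 696 CPM early. Its log2 changes were -0.16 for TFIIA and -1.34 for TFIIB (difference 1.18, adjusted p = 0.0016). ACS1, acetyl-CoA synthetase of growth on acetate, had 168, 180.2 and 195 CPM of TFIIA late and 217, 189 and 187 CPM early, against 118, 54.9 and 62.5 CPM of TFIIB late and 725, 416 and 291 CPM early. The difference of the log2 changes at ACS1 was 2.47 (adjusted p = 0.0021). TFIIA thus overlapped between late and early at ACS1, where TFIIB was lower late than early in all libraries. The ACS1 site for TFIIA is 444 bp wide, and the median TFIIA site had 429 CPM per kb at 10 min.

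By list, the tricarboxylic acid cycle had 5 of 6 shared genes with a higher TFIIA change than TFIIB change (median log2 change -0.09 for TFIIA and -0.96 for TFIIB), against 5.9% of all shared genes. These were SDH2, SDH3, SDH4, MDH1 and CIT2. For gluconeogenesis and nonfermentable carbon it was again 5 of 6: YAT1, YAT2, ACS1, ICL2 and CAT8, the activator of gluconeogenic genes (list medians -0.13 and -1.90). ALD4 was the exception, with -0.63 for TFIIA and -0.85 for TFIIB (adjusted p of the difference = 0.545). The respiratory list had 6 of 20 (medians -0.09 and -0.54). On the other side, 6 of 33 snRNA and snoRNA genes had a lower TFIIA change, against 1.24% of all (medians -0.07 and 0.30), and ribosomal protein genes had 2 of 85, RPL18B and RPS21B (medians 0.03 and 0.28).

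**Figure D3:**
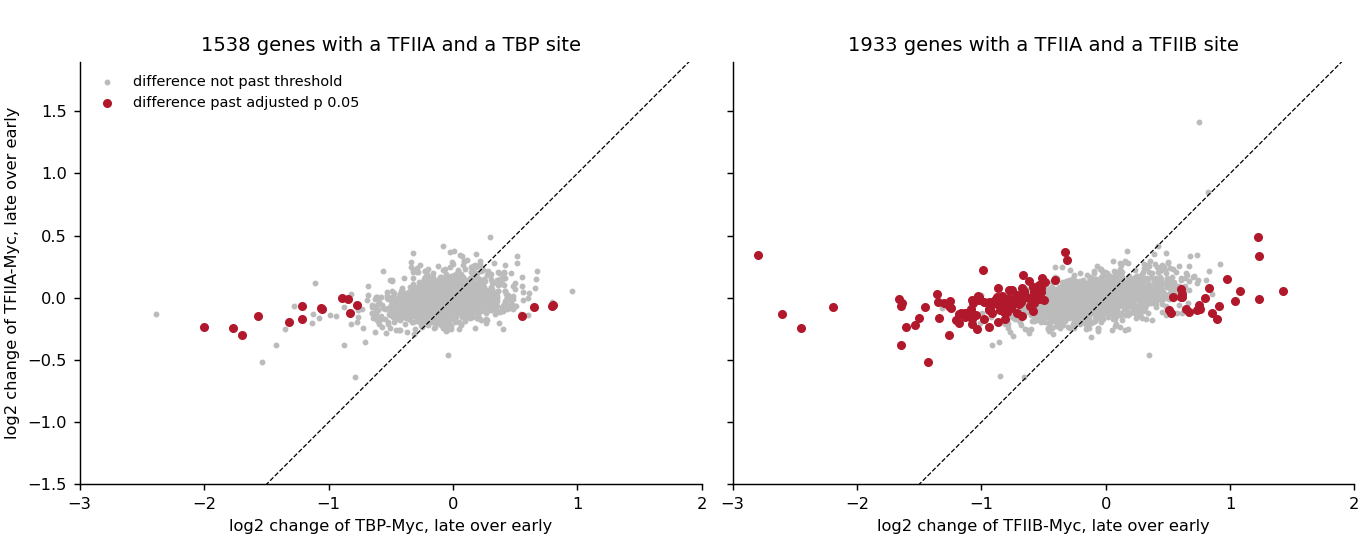
Log2 change of TFIIA-Myc (late over early, vertical axis) against that of TBP-Myc (left panel, 1538 genes) and of TFIIB-Myc (right panel, 1933 genes) on the horizontal axes, with equal changes on the dashed line and genes whose difference passed an adjusted p of 0.05 in red. The points spread along the horizontal axis, with an SD of 0.11 for TFIIA, 0.29 for TBP and 0.40 for TFIIB.

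Among the promoters named above, CYB2 fell by 0.51 (log2) in TFIIA and by 1.43 in TFIIB (difference 0.91, adjusted p = 0.0376), and DLD1 fell by 0.38 and 1.65 (difference 1.27, adjusted p = 0.00236), where the TFIIA values missed their own test. YOR302W had 0.49 for TFIIA and 1.22 for TFIIB (difference -0.73, adjusted p = 0.0457), and YGR035W-A had 0.34 and 1.23 (difference -0.90, adjusted p = 0.00222). At GAL3 the log2 changes were 0.37 for TFIIA and -0.33 for TFIIB (difference 0.70, adjusted p = 0.0343). Neither change passed its own edgeR test (adjusted p = 0.267 and 0.116), and the late and early TFIIB values overlapped. At GAL7 and GAL80 the differences of 0.67 and 0.03 did not pass (adjusted p = 0.364 and 0.97). The factors were counted over intervals of unlike width. The TFIIA interval was wider than that of TFIIB at DLD1 (950 and 317 bp), YGR035W-A (916 and 269), CYB2 (892 and 455), YOR302W (536 and 276) and GAL80 (885 and 651). It was narrower at GAL3 (602 and 664 bp) and GAL7 (915 and 1258 bp). Whether width changed these differences was not tested.

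The GAL1-GAL10 and GAL2 sites could be set against TFIIB only with a wider gene window, of 500 bp upstream to 200 bp downstream. TFIIB at GAL1-GAL10 had 18387, 15937 and 15738 CPM late and 3773, 8950.2 and 14291 CPM early, so it approached its late level by 25 min, when TFIIA had 1838 CPM of a late mean of 4602 CPM. The differences in log2 change were 0.93 ± 0.56 at GAL1 (SE, adjusted p = 0.293) and 0.87 ± 0.51 at GAL2 (adjusted p = 0.284), so the factors were not shown to differ there. For TBP the interval over GAL1-GAL10 is 7418 bp wide and takes in the neighbouring sites. It had 15068, 16712 and 12976 CPM late and 8352, 18522 and 17294 CPM early, with overlap.

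The TFIIB comparison also moved with the libraries and the scaling. With time point as a block there were 52 higher and 12 lower. The median difference over the 1933 genes was 0.14, a shift in favour of TFIIA that fell to 0.03 with TMM factors and 0.01 with DESeq2 size factors. The calls were then 61 higher and 25 lower, and 51 higher and 27 lower. All 138 kept their sign under these scalings, but they were picked by their difference in these same libraries. Leaving out the TFIIA library at 10, 20, 25, 60, 90 or 120 min left 43, 43, 88, 66, 69 and 64 calls, and leaving out TFIIB at 10, 20 or 25 min left 81, 87 and 415. After background subtraction 6 of the 138 stayed past the threshold, and 130 kept their sign.

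**Figure D4:**
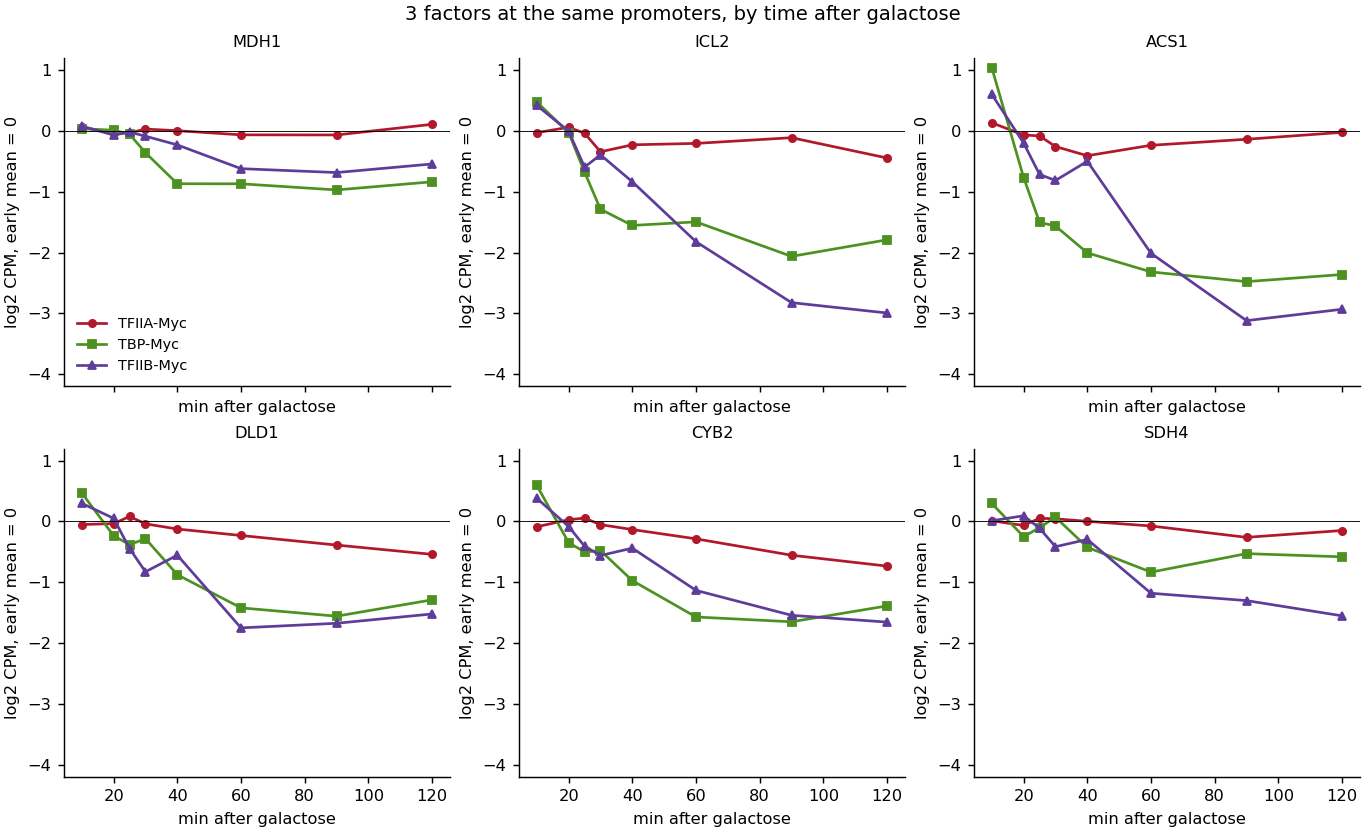
Log2 CPM relative to the mean of the early libraries (vertical axes) against minutes after galactose (horizontal axes) at 6 promoters, for TFIIA-Myc (red circles), TBP-Myc (green squares) and TFIIB-Myc (purple triangles), 1 point per library. At SDH4, ACS1 and ICL2 the TFIIB line falls by more than 1 unit, while the TFIIA line stays within about 0.5 of 0.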

How the data were processed

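Yeast cells were crosslinked at each time after galactose addition, and DNA bound by the tagged factor was sequenced (ChIP-seq). The values used here are raw read counts per interval, deposited by the authors. Per their methods, reads were aligned with Bowtie2 to sacCer3, peaks were called with MACS2 against input on several early Myc libraries and merged, and reads over the merged intervals were counted with bedtools. All time points of a factor and tag were run in 1 multiplexed set. Counting without normalization leaves depth differences in the counts, which the scaling below removes.

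Each library was scaled to its total over sites off the mitochondrial chromosome and outside chrXII:451000-491000. Late (60, 90 and 120 min) and early (10, 20 and 25 min) libraries were compared with the quasi-likelihood test of edgeR 4.0.16 (R 4.3.3) on 6 libraries, with a mean count of at least 10 and Benjamini-Hochberg adjustment over 3647 sites at 0.05. A site was assigned to a gene if its midpoint lay from 250 bp upstream to 100 bp downstream of the annotated start (2325 sites). Factor comparisons used the interaction term over 12 libraries at genes with a site for both factors. Figures and tables were made in Python 3.11.15 with numpy 2.4.6, pandas 2.3.3 and matplotlib 3.10.9. The fits were run on simulated counts with a fixed mean per group. The real groups hold different time points, so that run could not test the fits under a moving course.

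The genes named were assigned sites with a mean of at least 50 counts: the 10 with the largest change in each direction past the threshold that kept their sign without each library, filled up to 10 by the smallest p among sites whose groups did not overlap. Gal4-regulated genes, transcription factor subunits and strain loci were also named. The members and lists were chosen with earlier results of these data known. Alternatives were TMM factors, DESeq2 1.42.0 size factors and its Wald test, other totals, a loess offset, other filters and time groups, a slope on log2(time), a time-point block, a wider gene window, leaving out each library and, with limma 3.58.1, background subtraction.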

Additional observations from a re-analysis of the deposited data

Results flagged for a closer look

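The change of TFIIA-Myc (late over early) differed from that of a second factor at the genes given here, by the interaction test of edgeR with adjustment over all shared genes. Values are the log2 change of TFIIA minus that of the other factor.

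Against TBP, the difference was positive at PDH1 (1.77), ICL2 (1.52), IDH2 (1.43), TIP1 (1.40), CQD1 (1.15), RIM4 (1.12), NCE102 (1.04), YLR297W (0.975), PTR2 (0.958), MDH1 (0.887), YKR075C (0.831), ATP7 (0.710) and ATP17 (0.703). It was negative at YKL068W-A (-0.862), SNR47 (-0.861), SNR69 (-0.726) and YJL047C-A (-0.702). At all 17 genes TBP had the larger change in size. They were picked by their difference and TFIIA changes spread less between genes, so this is no separate result.

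Against TFIIB, among the named genes and the lists for the tricarboxylic acid cycle and nonfermentable carbon, the difference was positive at YAT1 (3.13), ACS1 (2.47), ICL2 (2.2), CIT2 (1.58), YAT2 (1.38), DLD1 (1.27), SDH4 (1.18), CAT8 (1.05), SDH3 (0.967), CYB2 (0.913), SDH2 (0.803), GAL3 (0.695) and MDH1 (0.610). It was negative at YGR035W-A (-0.897) and YOR302W (-0.733). The TFIIA sites at YAT1 and ICL2 are short (163 and 179 bp), with 63.8 and 81.2 CPM at 10 min. The median TFIIA site had 429 CPM per kb at that time. At ICL2 the TFIIB interval is wider (614 bp), and at YAT1 TFIIB had only 3.32, 3.29 and 6.86 CPM late. Whether TFIIA had room to fall at such sites was not tested. At DLD1, CYB2, YOR302W and YGR035W-A the TFIIB interval is narrower than the TFIIA interval, and the effect of width was not tested.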

How the results depend on the processing

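No paired analysis was possible because the labels give no replicate numbers, apart from the time-point block of the factor comparisons, which pairs libraries by minute. The 13 TFIIA-Myc calls were all called again with TMM factors, DESeq2 size factors, the total over all sites and a loess offset. A middle group of libraries gave 22 calls (8 lower), a slope on log2(time) 10 lower and the DESeq2 Wald test 27 (18 higher and 9 lower). Comparing 40 to 120 min with 10 to 30 min gave 0 calls in edgeR (231 at an unadjusted p under 0.05). Background subtraction gave 0 in limma (348 at an unadjusted p under 0.05). It was added after seeing the data only for the comparisons with TBP and TFIIB. Leaving out a library gave 0 to 47 calls (0 to 23 higher, 0 to 24 lower). Against TBP, the time-point block gave 11 calls (1 lower), the total over all sites 1 lower, and 40 to 120 min 1 call (1 higher, 0 lower, with 100 at an unadjusted p under 0.05). Leaving out a library gave 5 to 81 (5 to 44 higher, 0 to 37 lower). Against TFIIB there were 86 calls with TMM factors (61 higher), 78 with DESeq2 size factors (51), 87 with the loess offset (67), 64 with the block (52 and 12 lower), 229 with the wider window (184 and 45), 3 at 40 to 120 min (0 higher and 3 lower) and 6 after subtraction (5 and 1). Leaving out a library gave 43 to 415 (32 to 321 higher, 11 to 94 lower). The Gal4 list median minus the median of all sites was 0.36 with the wider window. MTH1 (-5.28e-05) and TOA2 (-0.0004325) changed sign with the total over all sites, and TOA2 (-0.0117) with subtraction. Without 1 library, lists are likewise given as the list median minus the median of all sites in the same fit. These values ranged from -0.161 to -0.051 (tricarboxylic acid cycle), 0.0334 to 0.0743 (amino acids) and -0.0664 to 0.0146 (ergosterol). For transcription factor subunits the range was -0.057 to 0.0458, and for strain loci -0.0693 to 0.0763. For chromosome ends it was -0.0200 to 0.188, and for promoters without TATA -0.0207 to -0.0118. Log2 changes ranged from -0.0621 to 0.0813 (MTH1), -0.00526 to 0.185 (PCL10), -0.0739 to 0.0368 (TFG2), -0.0881 to 0.0221 (TFG1), -0.0519 to 0.0785 (TOA2) and -0.0547 to 0.147 (TFA1). The cause of these moves was not tested.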

Other observations

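The sites given here were chosen after their values were seen, and none passed the test. The core histone promoters, each shared by a divergent gene pair, had more TFIIA-Myc late at all 4 loci. HTA2-HTB2 (chrII:235308-237171) had 2652, 2683 and 2731 CPM late and 2423, 1863 and 1664 CPM early (log2 change 0.44, adjusted p = 0.338, edgeR). The other loci had log2 changes of 0.40 (HHT1-HHF1), 0.31 (HTA1-HTB1) and 0.30 (HHT2-HHF2), with adjusted p = 0.267, 0.47 and 0.524. At each of the 4 the 20 and 25 min libraries were below the one at 10 min.

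A broad site whose midpoint lies inside HXT7, a high-affinity hexose transporter gene, had 3106, 2689 and 2556 CPM late and 5074, 4199 and 3501 CPM early (log2 change -0.61, adjusted p = 0.113). HXT6 and HXT7 are near-identical, so reads may be split between them. A site whose midpoint lies inside YIL163C and 283 bp upstream of SUC2, the invertase gene, had 657, 593 and 498 CPM late and 819.5, 793 and 699 CPM early (log2 change -0.40, adjusted p = 0.206). A site 342 bp upstream of the Ty element gene YLR410W-B had a log2 change of 0.36 (adjusted p = 0.0506), and its reads may come from other Ty copies. HTC1, where each library of the 8 was higher than the one before, had 0.22 (adjusted p = 0.407).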
